A study of Homo sapiens with 10 samples.

Results

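Adherens junctions hold neighbouring epithelial cells together, and 9 genes that encode their membrane receptors and the proteins on their inner face were followed here. These were the classical cadherins CDH1 and CDH3, the catenins CTNNB1, CTNNA1 and CTNND1, afadin (AFDN), and the nectins NECTIN1, NECTIN3 and NECTIN4. They were picked by symbol, as known parts of this junction, with earlier results of these data known. Each matched 1 of the 58050 Ensembl gene identifiers in the table of transcript levels. HCT116 is a human colon carcinoma line of epithelial origin. Poly(A) RNA was sequenced from 5 cultures of HCT116-WT cells and from 5 cultures of HCT116-CD276KO cells, in which CD276 (B7-H3), a surface protein of the immune checkpoint family, had been targeted with a Cas9 ribonucleoprotein. The knockout cells descended from 1 single cell clone, so the effect of the edit and a property of that clone cannot be told apart. A scrambled guide RNA served as the control in the editing, but the sources used here do not state whether the HCT116-WT cultures had received it. The replicates of each group were named as biological replicates.

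Cadherins reach across the gap between cells and bind a cadherin of the same kind on the neighbour. Their cytoplasmic tail carries beta-catenin, which binds alpha-catenin and through it actin, and p120-catenin, which keeps the cadherin at the surface. Nectins form a parallel set of contacts, which afadin connects to actin, and beta-catenin outside the junction is the transcriptional partner of the Wnt pathway.

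Levels were deposited as TPM, shares of the transcripts in a library after correction for transcript length, which keep no count of reads, so the depth of each library is unknown and precision comes from the replicates alone. Between 22109 and 22948 genes were above 0 TPM in each library. CD276 itself lay between 38.1 and 53.6 TPM in HCT116-WT and between 4.40 and 7.42 TPM in HCT116-CD276KO, with a log2 fold change of -2.85. Libraries differed in how far levels leaned toward long transcripts. The Spearman correlation, across genes, of each library's deviation from the mean with transcript length ran from -0.09 to 0.43 in HCT116-WT and from -0.52 to 0.32 in HCT116-CD276KO, with HCT116-CD276KO replicates 2 and 3 lowest at -0.52 and -0.49. Results are therefore given also after a correction for length and GC content and without those replicates.

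The promoters of NECTIN3 and AFDN are printed here because the pair encodes a receptor that fell and the protein its tail binds, whose change did not pass the test. Each is the 250 bases before the RefSeq gene start on GRCh38.p14, plus strand, at chr3:111071566-111071815 for NECTIN3 and at chr6:167827385-167827634 for AFDN. Both windows lie inside the wider gene span of GENCODE 44 and overlap no exon there. Capitals mark CACCTG, searched on both strands, the E-box that the SNAI and ZEB repressors of CDH1 are known to bind.
NECTIN3: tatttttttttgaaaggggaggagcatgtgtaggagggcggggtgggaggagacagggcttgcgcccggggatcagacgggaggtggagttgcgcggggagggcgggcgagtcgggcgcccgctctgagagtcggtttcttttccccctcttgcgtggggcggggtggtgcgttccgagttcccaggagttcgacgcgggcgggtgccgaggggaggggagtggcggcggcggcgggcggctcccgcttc
AFDN: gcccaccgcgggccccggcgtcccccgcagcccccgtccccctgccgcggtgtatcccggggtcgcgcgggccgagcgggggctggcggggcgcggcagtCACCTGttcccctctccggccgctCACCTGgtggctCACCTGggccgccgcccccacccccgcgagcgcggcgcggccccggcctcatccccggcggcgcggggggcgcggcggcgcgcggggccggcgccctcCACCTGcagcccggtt
The AFDN window held 4 matches, which began 150, 126, 114 and 16 bases before the start, and the NECTIN3 window held 0. Of the other genes with an entry, NECTIN4, which was lower in the knockout libraries, held 1 match, 38 bases before its start, and CTNNB1 and CTNNA1 held 0. Over the 35116 promoter windows of the same length, 17.5% held at least 1 CACCTG and 61.8% held the wider CANNTG, of which CACCTG is one form. GC content was 84.8% for AFDN and 69.2% for NECTIN3. RefSeq promoter entries were at hand for 5 of the 9 genes, and those for CDH1, CDH3, CTNND1 and NECTIN1 were not.

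Of the 9 genes, 8 reached a mean of 1 TPM and were compared with limma on log2(TPM + 1), and 4 of them, CDH1, CDH3, NECTIN1 and NECTIN3, had lower transcript levels in HCT116-CD276KO at an adjusted p under 0.05. None was called higher. Among all 13581 genes tested, 662 (4.87%) were called, 556 (4.09%) of them lower and 106 (0.781%) higher. With a change of at least 1.5-fold asked for as well, 3 of the 8 were called, against 1.56% of all genes called lower, and at 2-fold 1, CDH1, against 0.464%. The groups did not overlap in 5 of the 8, all lower in the knockout, against 6.19% of all genes, and in none that was higher, against 1.42%. All 8 log2 fold changes were below 0, with a median of -0.45 against -0.09 over all genes tested. Below 0 lay 68.1% of all genes tested. At an unadjusted p under 0.05 the count was 6 of 8, against 21.9% of all genes tested. As the 9 genes were chosen with earlier results of these data known, these counts beside the shares of all genes are descriptive. The split of calls among all genes moved with the scaling, to 389 lower and 191 higher with median-of-ratios scaling, to 385 lower (2.83%) and 253 higher with quantile normalization, and to 699 lower (5.19%) and 600 higher (4.45%) after the length and GC correction. Under these scalings 5, 3 and 4 of the 8 genes were called, each of them lower. As the RNA came from bulk cultures, fewer cells with the transcript and less of it per cell cannot be told apart.

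CDH1, which encodes E-cadherin, the main cadherin of epithelial cells, fell the most of the 8 genes on the log2 scale. It lies on the plus strand at chr16:68737292-68835537 (hg38, ENSG00000039068). Its levels in HCT116-WT replicates 1 to 5 were 47.9, 44.5, 43.3, 34.6 and 43.4 TPM, and in HCT116-CD276KO replicates 1 to 5 they were 29.2, 14.3, 16.6, 20.0 and 21.8 TPM. Every knockout library lay below every wild-type library, with HCT116-CD276KO replicate 1 nearest to them. The mean went from 42.7 ± 4.92 to 20.4 ± 5.73 TPM (SD, n = 5 each), 47.7% of the wild-type mean. The log2 fold change was -1.07 (SE 0.16, 95% interval -1.42 to -0.71, limma adjusted p = 0.00311), and the exact two-sided permutation test gave p = 0.00794, the smallest that 5 against 5 allow. Corrected for length and GC content, the log2 fold change was -0.89 (limma adjusted p = 0.000471), and without HCT116-CD276KO replicates 2 and 3 it was -0.84 (limma adjusted p = 0.0131). The coefficient of variation of CDH1 was 11.5% in HCT116-WT and 28.1% in HCT116-CD276KO, where the median over all genes tested was 11.1% and 13.8%. Over genes averaging at least 10 TPM the median was 9.28% and 11.4%.

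CDH3 encodes P-cadherin, found with E-cadherin in many epithelia and carcinomas, and its gene lies next to CDH1 on the same strand (chr16:68636189-68727468, ENSG00000062038), ending 9823 bases before CDH1 begins. In HCT116-WT replicates 1 to 5 CDH3 stood at 151, 136, 130, 122 and 140 TPM, and in the knockout replicates at 102, 68.8, 72.2, 84.7 and 93.9 TPM. The groups were again apart, and knockout replicates 2 and 3 were the lowest. The means were 136 ± 10.9 and 84.4 ± 14.1 TPM (SD, n = 5 each), 62.1% of wild type, with a log2 fold change of -0.69 (SE 0.11, 95% interval -0.93 to -0.46, limma adjusted p = 0.00371; exact permutation p = 0.00794). With the length and GC correction it was -0.53 (limma adjusted p = 0.000338), and the same to 2 decimals without knockout replicates 2 and 3 (limma adjusted p = 0.0111). CDH3 was above CDH1 in every library, and the ratio of CDH3 to CDH1 TPM was 3.19 ± 0.206 in HCT116-WT and 4.24 ± 0.473 in HCT116-CD276KO (SD, n = 5 each). The log2 difference in that ratio was 0.41 (SE 0.09; exact permutation p = 0.0159, 0.0198 adjusted over the 5 ratios compared). The groups overlapped in it, since knockout replicate 1 had a ratio of 3.50 and wild-type replicate 4 one of 3.53.

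The other 11 cadherins in a list gave little signal. Only 2 reached 1 TPM, neither passed the test, and the most abundant, CDH24, had means of 3.96 and 3.56 TPM. CDH2, which encodes N-cadherin, was at or below 0.02 TPM in every library. CDH6, CDH11, CDH13 and CDH16 were listed at 0.

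CTNNB1 and CTNNA1, the catenins that form the chain from cadherin to actin, did not pass the test. CTNNB1 encodes beta-catenin (chr3:41194741-41260096, plus strand, ENSG00000168036) and stood at 284, 261, 242, 247 and 279 TPM in HCT116-WT replicates 1 to 5 and at 274, 225, 212, 260 and 257 TPM in the knockout replicates. The groups overlapped, and only knockout replicates 2 and 3 lay below the lowest wild-type library. The means were 262 ± 18.7 and 246 ± 26.0 TPM (SD, n = 5 each), and the log2 fold change was -0.10 (SE 0.08, 95% interval -0.28 to 0.08, limma adjusted p = 0.477; exact permutation p = 0.278). Its sign turned to 0.03 after the length and GC correction (95% interval -0.06 to 0.12) and to 0.0094 without knockout replicates 2 and 3. A fall of the size seen in CDH1 lies outside these intervals.

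CTNNA1 encodes alpha-catenin (chr5:138610967-138935034, plus strand, ENSG00000044115), the most abundant of the 9 in TPM. In HCT116-WT replicates 1 to 5 it was at 377, 378, 326, 328 and 366 TPM, and in the knockout replicates at 364, 249, 275, 348 and 355 TPM. Knockout replicates 2 and 3 were again low, and the other 3 lay within the wild-type range. The means were 355 ± 25.9 and 318 ± 52.3 TPM (SD, n = 5 each), with a log2 fold change of -0.17 (SE 0.11, 95% interval -0.41 to 0.07, limma adjusted p = 0.361; exact permutation p = 0.238). With the length and GC correction it was -0.03, and 0.0066 without knockout replicates 2 and 3. The ratio of CTNNA1 to CTNNB1 was 1.35 ± 0.0534 in HCT116-WT and 1.29 ± 0.106 in HCT116-CD276KO (SD, n = 5 each), a log2 difference of -0.07 (SE 0.06; exact permutation p = 0.349).

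Relative to E-cadherin, beta-catenin transcript was thus more abundant in the knockout libraries. CTNNB1 over CDH1 was 5.93, 5.86, 5.59, 7.13 and 6.41 in HCT116-WT replicates 1 to 5 and 9.39, 15.7, 12.8, 13.0 and 11.8 in the knockout replicates. No knockout ratio fell within the wild-type range. The geometric mean ratio was 2.01-fold higher in the knockout (log2 difference 1.01, SE 0.14; exact permutation p = 0.00794, 0.0132 adjusted over the 5 ratios), and the length and GC correction left a log2 difference of 0.92.

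CTNND1 encodes p120-catenin (chr11:57753243-57819546, plus strand, ENSG00000198561), and its call depended on the settings. HCT116-WT replicates 1 to 5 had 138, 125, 119, 112 and 138 TPM, and the knockout replicates had 111, 67.9, 62.7, 88.8 and 104 TPM. The groups did not overlap, but by little, since knockout replicate 1 lay 1 TPM below wild-type replicate 4. The means were 126 ± 11.5 and 86.9 ± 21.4 TPM (SD, n = 5 each), 68.8% of wild type, and the log2 fold change was -0.57 (SE 0.15, 95% interval -0.89 to -0.24, limma adjusted p = 0.0540; exact permutation p = 0.00794). It was called in 7 of 20 fits, the one after length and GC correction among them (-0.35, limma adjusted p = 0.0110), and not without knockout replicates 2 and 3 (-0.32, limma adjusted p = 0.142). CTNND1 relative to CTNNA1 fell from 0.356 ± 0.0189 to 0.271 ± 0.0308 (SD, n = 5 each), with a log2 difference of -0.40 (SE 0.08; exact permutation p = 0.00794, 0.0132 adjusted over the 5 ratios) and no overlap.

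Among 9 further catenins and catenin-binding proteins 6 were tested, and 1 was called, lower, where 4.09% of all genes tested were. This was JUP, plakoglobin, the catenin shared by adherens junctions and desmosomes, with 148 ± 9.77 TPM in HCT116-WT and 103 ± 13.7 TPM in HCT116-CD276KO (SD, n = 5 each). The log2 fold change of JUP was -0.52 (SE 0.09, limma adjusted p = 0.00725), and -0.41 after the length and GC correction (limma adjusted p = 0.00111).

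AFDN encodes afadin, the link from nectins to actin (chr6:167826893-167972023, plus strand, ENSG00000130396). Levels of AFDN were 22.5, 19.7, 20.9, 18.1 and 24.7 TPM in HCT116-WT replicates 1 to 5, and 18.2, 14.2, 15.6, 16.4 and 19.2 TPM in the knockout replicates. Knockout replicates 1 and 5 lay above wild-type replicate 4, so the groups overlapped. The means were 21.2 ± 2.57 and 16.7 ± 2.01 TPM (SD, n = 5 each) with a log2 fold change of -0.32 (SE 0.10, 95% interval -0.55 to -0.10, limma adjusted p = 0.0976; exact permutation p = 0.0238). It passed the threshold in none of the 20 fits. Corrected for length and GC content it was -0.09, the only one of the 8 besides CTNNB1 and CTNNA1 whose 95% interval then held 0 (-0.24 to 0.07).

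NECTIN3 (chr3:111070071-111275563, plus strand, ENSG00000177707) had the largest fall among the nectins tested. Nectin-3 pairs with nectins of other kinds across the cell gap. HCT116-WT replicates 1 to 5 were at 56.8, 51.2, 38.1, 53.0 and 58.5 TPM, and the knockout replicates at 30.7, 22.1, 26.7, 31.0 and 36.3 TPM. Wild-type replicate 3 was the lowest of its group and came within 2 TPM of knockout replicate 5, without overlap. The means were 51.5 ± 8.04 and 29.4 ± 5.29 TPM (SD, n = 5 each), 57.0% of wild type, and the log2 fold change was -0.79 (SE 0.14, 95% interval -1.10 to -0.49, limma adjusted p = 0.00792; exact permutation p = 0.00794). NECTIN3 was called in 20 of 20 fits, with -0.66 after the length and GC correction (limma adjusted p = 8.88e-05) and -0.63 without knockout replicates 2 and 3 (limma adjusted p = 0.0440).

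NECTIN1 (chr11:119623408-119729200, minus strand, ENSG00000110400), a partner of nectin-3, changed less. It stood at 13.1, 12.3, 13.1, 12.2 and 13.5 TPM in HCT116-WT replicates 1 to 5 and at 11.2, 9.05, 8.47, 9.94 and 11.1 TPM in the knockout replicates. Wild-type libraries were close together and all above the knockout libraries. The means were 12.8 ± 0.530 and 9.96 ± 1.22 TPM (SD, n = 5 each), 77.6% of wild type. The log2 fold change was -0.34 (SE 0.09, 95% interval -0.53 to -0.16, limma adjusted p = 0.0432; exact permutation p = 0.00794). This call held in 7 of 20 fits and was lost in 8 of the 10 that left out 1 library. It was also lost after the length and GC correction (-0.16, limma adjusted p = 0.0527), without knockout replicates 2 and 3 (-0.23, limma adjusted p = 0.142) and in the fit that blocked on replicate number (limma adjusted p = 0.0820).

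NECTIN4 (chr1:161070998-161089558, minus strand, ENSG00000143217), a nectin of embryonic tissue and many carcinomas, was near the lower end of the scale. Its levels were 0.31, 0.48, 0.33, 0.41 and 0.44 TPM in HCT116-WT replicates 1 to 5 and 0.09, 0.21, 0.10, 0.17 and 0.07 TPM in the knockout replicates. The groups did not overlap, with means of 0.394 ± 0.0723 and 0.128 ± 0.0593 TPM (SD, n = 5 each; exact permutation p = 0.00794). It was left out of the main comparison by the 1 TPM minimum. With all 30818 genes above 0 TPM admitted, of which 1.47% were called lower, its log2 fold change was -0.31 on the log2(TPM + 1) scale (limma adjusted p = 0.0111), and the log2 ratio of the means was -1.62. NECTIN4 relative to NECTIN1 went from 0.0308 to 0.0133 (log2 difference -1.35, SE 0.37; exact permutation p = 0.00794, 0.0132 adjusted over the 5 ratios), but with 1 added to each TPM the log2 difference was 0.036 (exact permutation p adjusted over the ratios 0.722).

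Of 10 other nectins, nectin-like molecules and receptors of nectins, 3 were tested and none was called, where 4.87% of all genes tested were. NECTIN2 had means of 49.7 and 49.1 TPM, and PVR, the poliovirus receptor, 47.1 and 39.3 TPM (limma adjusted p = 0.134). Of the 7 below 1 TPM, CD96 and CD226, which bind nectin family members on lymphocytes, did not overlap between the groups. Their means were near the floor, at 0.288 and 0.074 TPM for CD96 and 0.182 and 0.052 TPM for CD226. The share of genes below 1 TPM without overlap was not counted. With all genes above 0 TPM admitted, of which 1.47% were called lower, CD96 was called lower (log2 fold change -0.26, limma adjusted p = 0.0357). CD226 was not (-0.16, limma adjusted p = 0.289).

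**Figure D1:**
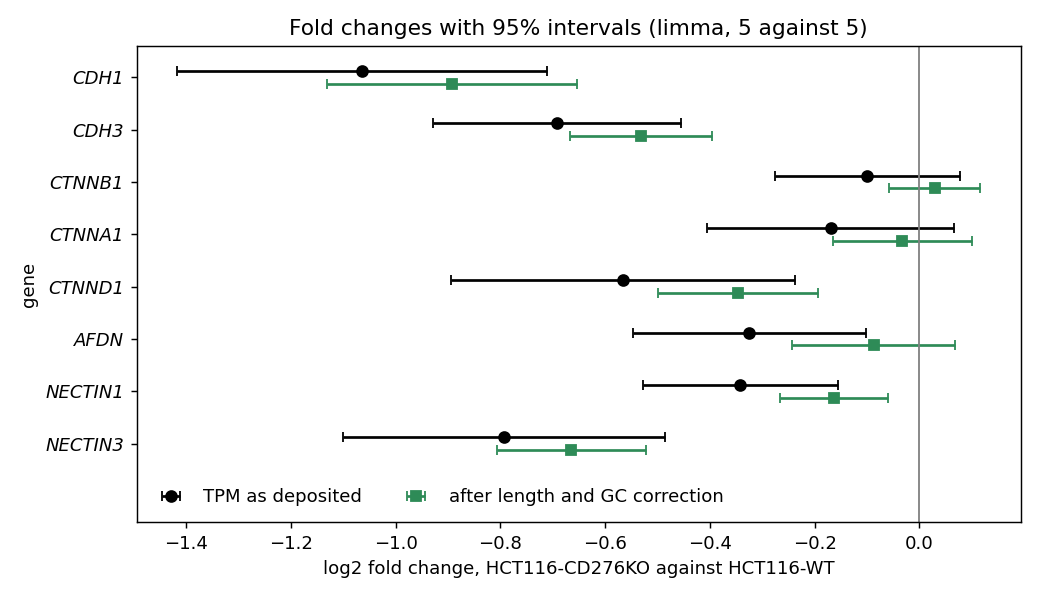
Log2 fold change of HCT116-CD276KO against HCT116-WT for the 8 genes tested (limma, 5 against 5), from TPM as deposited (circles) and after the length and GC correction (squares), with 95% intervals. CDH1, CDH3, NECTIN3, NECTIN1 and CTNND1 stay below 0 with both, while the interval of AFDN reaches 0 after the correction and those of CTNNB1 and CTNNA1 hold 0 with both.

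All 8 tested junction genes had their lowest levels in knockout replicates 2 and 3, the libraries that leaned most toward short transcripts. The correction brought every fold change closer to 0 or past it. NECTIN1 went from -0.34 to -0.16, CTNND1, with a canonical transcript of 6670 bases, from -0.57 to -0.35, and AFDN, with one of 7806 bases, from -0.32 to -0.09. CDH1 went from -1.07 to -0.89, CDH3 from -0.69 to -0.53 and NECTIN3 from -0.79 to -0.66. The part of RNA quality or library preparation in this trend was not tested.

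**Figure D2:**
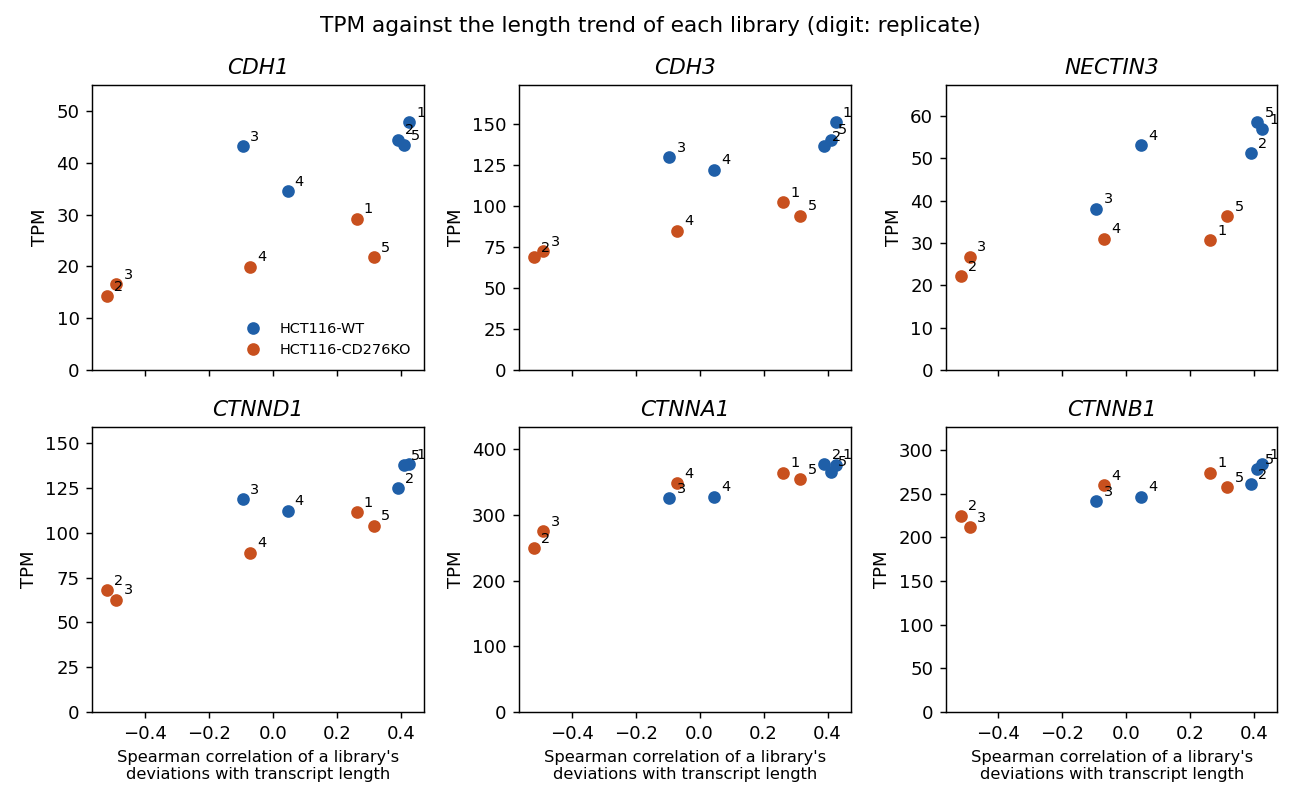
TPM of CDH1, CDH3, NECTIN3, CTNND1, CTNNA1 and CTNNB1 in the 10 libraries (linear axes from 0, digits give the replicate) against each library's length trend (Spearman correlation of its deviations with transcript length across genes). Knockout replicates 2 and 3 lie at the left with trends of -0.52 and -0.49, and every knockout value of CDH1, CDH3, NECTIN3 and CTNND1 lies below every wild-type value, whereas those of CTNNA1 and CTNNB1 overlap.

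In HCT116-WT the levels ran, by mean TPM, CTNNA1, CTNNB1, CDH3, CTNND1, NECTIN3, CDH1, AFDN, NECTIN1 and NECTIN4, from 355 to 0.394. Values of CDH3 overlapped those of CTNND1, and values of NECTIN3 those of CDH1, while the other neighbours in this order were apart. In HCT116-CD276KO the order differed in 1 place, CTNND1 standing above CDH3 with 86.9 against 84.4 TPM, but their values overlapped and CTNND1 was higher in only 3 of 5 libraries. Overlap was also seen there for CTNNA1 with CTNNB1, NECTIN3 with CDH1, and CDH1 with AFDN.

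The genes whose pattern over the 10 libraries was most like that of CDH1 on log2(TPM + 1) were CDH3 (Pearson r = 0.992), PLEKHA2 (r = 0.991) and KIAA0040 (r = 0.989). The libraries share the group difference and the length trend, so these values are descriptive. PLEKHA2 had means of 9.62 and 5.44 TPM (log2 fold change -0.73, limma adjusted p = 0.00469) and KIAA0040 24.4 and 10.7 TPM (log2 fold change -1.16, limma adjusted p = 0.00268). Among the junction genes, r with CDH1 was 0.951 for NECTIN1, 0.936 for CTNND1, 0.888 for NECTIN3, 0.883 for AFDN, 0.741 for CTNNA1 and 0.674 for CTNNB1.

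Around CDH1 on chromosome 16, 40 tested genes started within 1000000 bases, and 5 of them, CDH1 and CDH3 included, were called lower and 1 higher, against 4.09% and 0.781% of all genes tested. Their median log2 fold change was -0.10, against -0.09 over all genes tested. This window was chosen after the values were seen. HAS3, a hyaluronan synthase gene that starts 368361 bases beyond the CDH1 start, had the largest fall, from 72.2 ± 5.51 to 18.7 ± 3.36 TPM (SD, n = 5 each; log2 fold change -1.91, limma adjusted p = 1.88e-06). Between CDH1 and HAS3, TANGO6 had means of 12.8 and 11.7 TPM (log2 fold change -0.12, limma adjusted p = 0.512). The calls for DUS2 (-0.33) and UTP4 (-0.34) were smaller, and NQO1, an oxidoreductase gene, rose by 0.24 on the log2 scale. After the length and GC correction the same 5 genes were called lower, against 5.19% of all genes. CYB5B (0.34, limma adjusted p = 0.00143) was then called higher besides NQO1 (0.32, limma adjusted p = 0.00268), against 4.45% of all genes.

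Genes that act with the junction were read from lists of 85 further genes, of which 60 were tested, 2 (JUP and LIMA1) were called lower, near the 4.09% of all genes tested, and none higher (0.781% of all genes). After the length and GC correction 4 were called lower (JUP, LIMA1, ACTN4 and CTNNAL1), against 5.19% of all genes, and 3 higher (FER, SSX2IP and ZEB1), against 4.45%. Of the 60, 52 (86.7%) had a log2 fold change below 0, with a median of -0.18, where 68.1% of all genes tested lay below 0 with a median of -0.09. An unadjusted p under 0.05 was found for 20 of the 60 (33.3%), against 21.9% of all genes tested. Among 16 actin linkers and afadin partners, all tested, LIMA1, an actin-bundling partner of alpha-catenin, went from 94.7 ± 8.73 to 61.0 ± 10.6 TPM (SD, n = 5 each; log2 fold change -0.64, SE 0.11, limma adjusted p = 0.00859). ACTN4, an actin crosslinker, had means of 660 and 510 TPM without overlap of the groups (log2 fold change -0.39, limma adjusted p = 0.0664). Of the 60 genes tested, 3 were lower in the knockout without overlap, near the 6.19% of all genes tested. ACTN4 was called lower with the length and GC correction (-0.22, limma adjusted p = 0.0396) and without knockout replicate 3. None of the 16 genes for phosphorylation, shedding and turnover of cadherins was called on TPM as deposited, RAB11A, a recycling GTPase, having means of 367 and 342 TPM. FER, a kinase that binds p120-catenin, had means of 15.3 and 16.5 TPM and was called higher with the correction (log2 fold change 0.29, limma adjusted p = 0.0197). Likewise none of the 14 tested genes of the beta-catenin destruction complex and its nuclear partners was called, with 192 and 179 TPM for the kinase CSNK1A1.

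Of 7 repressors known to act on the CDH1 promoter, TCF3, SNAI1 and ZEB1 reached 1 TPM, and none of these passed the test on TPM as deposited. TCF3 had means of 108 and 93.2 TPM (limma adjusted p = 0.204), SNAI1 9.06 and 8.97 TPM, and ZEB1 1.94 and 2.43 TPM (limma adjusted p = 0.388). After the length and GC correction, where 4.45% of all genes were called higher, ZEB1 was called higher, with a log2 fold change of 0.37 (limma adjusted p = 0.0285). As deposited, ZEB1 was at 1.83 to 2.13 TPM in HCT116-WT and at 3.45, 1.78, 1.74, 2.49 and 2.71 TPM in knockout replicates 1 to 5. Of the 4 below 1 TPM, the groups did not overlap in SNAI2 and TWIST1 (exact permutation p = 0.00794 for each). Their means were 0.158 and 0.060 TPM for SNAI2 and 0.944 and 0.394 TPM for TWIST1. The share of genes below 1 TPM without overlap was not counted. With all genes above 0 TPM admitted, of which 1.47% were called lower, TWIST1 was called lower (log2 fold change -0.48, limma adjusted p = 0.0134). SNAI2 was not (-0.13, limma adjusted p = 0.104).

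Markers of epithelium other than VIL1 were present in every library, and most had lower means in the knockout, as the junction genes had. The sum of 6 markers was 4137 to 4911 TPM in HCT116-WT and 3297 to 3769 TPM in HCT116-CD276KO, and 4 of the 5 tested were called lower, against 4.09% of all genes tested. These were KRT8 (2082 to 1553 TPM), KRT18 (821 to 625 TPM), KRT19 (1267 to 1034 TPM) and EPCAM (260 to 202 TPM), with log2 fold changes between -0.42 and -0.29. Library by library the patterns differed. Knockout replicate 2, low for the junction genes, was the highest knockout library for KRT8 (1747 TPM), KRT18 (663 TPM) and KRT19 (1161 TPM). For EPCAM it was the lowest (187 TPM). The intestinal factor CDX2 had means of 8.91 and 9.27 TPM, and VIL1, villin, was at or below 0.05 TPM. Fibroblast markers summed to 6.02 to 8.99 and 4.54 to 7.51 TPM, leukocyte markers to 9.08 to 14.9 and 6.05 to 13.0 TPM, mainly CD68, and endothelial markers to at most 0.65 TPM. The part of the epithelial markers in the fall of the junction genes was not tested.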

How the data were processed

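Poly(A) RNA of 5 HCT116-WT and 5 HCT116-CD276KO cultures had been read as single reads from strand-specific libraries. Per the submitters' processing notes the tools were STAR 2.5.2b, RSEM 1.3.0, featureCounts 1.5.1 and FastQC 0.11.5, with hg38. The values deposited by the authors were TPM with 2 decimals, which carry no counts. The authors report an average depth over the samples, but the depth of each library is unknown. Which program gave the TPM is not given in the sources used here.

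Genes averaging 1 TPM or more (13581) were compared on log2(TPM + 1) with limma 3.58.1 in R 4.3.3, using a variance trend and p-values adjusted by Benjamini-Hochberg across those genes, with a threshold of 0.05. Fold changes on this scale understate those of low genes. Each of the 9 genes also had a two-sided exact permutation test on log2(TPM + 1), and ratios of TPM one on log2 ratios. The length and GC correction subtracted from each library a loess fit (span 0.3) of deviations from the gene means on transcript length and GC content, over 13472 genes. Alternatives were another pseudocount, other filters, median-of-ratios scaling, quantile normalization, that correction, a robust variance model, a 1.5-fold minimum, the replicate number as a block, and each library left out. A fit without HCT116-CD276KO replicates 2 and 3 was added after the data were seen. No library pair held identical values, and correlations between libraries were 0.974 to 0.985 within groups and 0.966 to 0.981 across them. Gene positions came from GENCODE 44 on hg38 and promoters from RefSeq. Python 3.11.15 with numpy 2.4.6, pandas 2.3.3, scipy 1.17.1 and matplotlib 3.10.9 served for the rest.

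The 9 genes and the lists were chosen with earlier results of these data known. Beside the 9, the genes named were CD276, the most abundant gene and up to 4 called genes of each list, and the 3 most like CDH1. PVR, CD96, CD226, FER, SSX2IP and CTNNAL1 were named after their values were seen. So were CDH2, CDH6, CDH11, CDH13, CDH15, CDH16, the repressors, the markers not called and the CDH1 neighbours.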

Additional observations from a re-analysis of the deposited data

Results flagged for a closer look

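In 60 groups of 5 values, 6 held a library whose gap to its nearest neighbour exceeded 0.71 of the range of the group, where chance gives about 1 in 20. None was a level of the 9 junction genes. The ratio of CTNNA1 to CTNNB1 in HCT116-WT was flagged at 0.745 of the range, through replicate 2 with 1.45. NECTIN2 in HCT116-WT was high in replicate 3, with 55.8 TPM against 47.4 to 48.8 TPM in the others (0.838 of the range). ACTN4 in HCT116-CD276KO was low in replicate 3, with 372 TPM against 514 to 568 TPM (0.722). KRT8 in HCT116-CD276KO was high in replicate 2, with 1747 TPM against 1474 to 1532 TPM (0.788). KRT19 in HCT116-WT was high in replicate 3, with 1481 TPM against 1175 to 1255 TPM (0.737). CD68 in HCT116-WT was low in replicate 4, with 8.89 TPM against 13.5 to 14.8 TPM (0.780).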

How the results depend on the processing

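CDH1, CDH3 and NECTIN3 were called lower in all 20 fits, with log2 fold changes of -1.20 to -0.84, -0.76 to -0.53 and -0.90 to -0.63. Over the fits 3 to 5 of the 8 genes tested were called. The 662 genes called among all became 1299 after the length and GC correction, 238 with a minimum of 1.5-fold (1.56% called lower) and 339 without HCT116-CD276KO replicates 2 and 3, and ranged from 343 to 857 with 1 library left out. Calls among the 85 further genes went from 2 to 4, all lower, with all genes above 0 TPM and to 7, 4 lower and 3 higher, after the length and GC correction, and were 2 to 3 with 1 library left out. CTNNB1 turned to 0.0296 after the length and GC correction and to 0.0094 without HCT116-CD276KO replicates 2 and 3, where CTNNA1 turned to 0.0066. NECTIN4 to NECTIN1 turned to 0.036 with a pseudocount of 1, which is larger than the NECTIN4 means of 0.394 and 0.128 TPM. The cause of the turns of CTNNB1 and CTNNA1 was not tested. With 1 library left out the log2 differences of the ratios between the groups ranged from 0.36 to 0.47 (CDH3 to CDH1), 0.92 to 1.10 (CTNNB1 to CDH1), -0.10 to -0.02 (CTNNA1 to CTNNB1), -0.45 to -0.34 (CTNND1 to CTNNA1) and -1.59 to -1.12 (NECTIN4 to NECTIN1).

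Same-numbered libraries did not deviate together, with correlations of -0.18 to 0.12, and only 1 of 5 above 0.1. This gave no sign that the numbers pair the samples. It cannot exclude a pairing, since the length trend of each library enters these correlations. With the replicate number as a block 378 genes were called, CTNND1 gained and NECTIN1 lost its call. The log2 differences of the ratios, 0.41, 1.01, -0.40 and -1.35, then had an adjusted p of 0.0781 in an exact sign-flip test, whose smallest p is 0.0625. Without read counts, the level of NECTIN4, under 0.5 TPM, has no known counting error.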
